A study of Mus musculus with 123 samples.

Results

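Epithelial cells hold together through tight junctions, adherens junctions and desmosomes, and 9 genes that encode parts of these junctions are described here: Cldn4, Cldn6, Cldn7, Ocln and Tjp1 of the tight junction, Cdh1 of the adherens junction, and Dsp, Dsc2 and Pkp2 of the desmosome. They were chosen by name as rows of the deposited table of transcript counts, 9 of its 29022 genes, and all 9 passed the detection filter. The choice was made with earlier results of these data known, so counts among the 9 set beside all genes below are descriptions. In the mouse preimplantation embryo the first epithelium is the trophectoderm, the outer layer of the blastocyst, which seals its tight junctions so that the cavity can fill. The inner cell mass (ICM) lies inside it and gives rise to epiblast and primitive endoderm. Claudins and occludin span the membrane and close the space between neighbouring cells, E-cadherin (Cdh1) couples cells to each other's actin cytoskeleton and takes part in compaction of the morula, and desmosomes anchor keratin filaments.

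The study removed Oct4 (encoded by Pou5f1) or Sox2, transcription factors of pluripotency, to ask what they do as the ICM forms and matures. Each library is 1 whole morula (E2.75) or 1 isolated early (E3.75) or late (E4.5) ICM, 68 of the Oct4 line and 55 of the Sox2 line. In KO embryos the gene was missing from oocyte and zygote alike: the mothers were homozygous for a floxed allele cut by ZP3-Cre, which is active in the oocyte, and the fathers were heterozygous for a null allele with a fluorescent reporter, mKO2 for Oct4 and EGFP for Sox2. Ctrl embryos kept an intact paternal allele but also lacked the maternal gene. In MWT embryos the mother had not lost the gene. Each line had 8 Ctrl and 8 KO embryos at each of 3 stages. MWT embryos of the Oct4 line comprised 7 morulae, 5 early and 8 late ICMs, and those of the Sox2 line 7 early ICMs. All mothers were superovulated, and the strain label of all embryos is B6C3F1. ICMs were cultured in KSOM with 1 μM of the MEK inhibitor PD0325901, which holds back primitive endoderm, and were freed of trophectoderm by immunosurgery. Stage, culture and isolation therefore change together between morula and ICM and cannot be told apart. In both Oct4 MWT groups of ICMs the source names give an earlier stage than the titles, and the early ones carry no inhibitor label. The stage in the title was used.

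The libraries held from 525755 to 1344035 unique molecules (UMIs), and levels are given as CPM, a gene's UMI count scaled to the same total in every library. The targeted genes went with the labels: the log2 fold change of Pou5f1 in Oct4 KO against Ctrl embryos was -5.31, -6.07 and -7.12 in morula, early and late ICM, and that of Sox2 in Sox2 KO embryos was -2.97, -2.12 and -3.35. Sox2 RNA was also lower in Oct4 KO than in Ctrl late ICMs (-1.61, standard error 0.27, edgeR adjusted p 1.05e-06). The late Oct4 KO effects below therefore come with a lower Sox2 level. Pou5f1 in Sox2 KO embryos differed by 0.12, -0.08 and 0.07. The summed level of 8 epiblast markers averaged between 2140 and 3074 CPM in the 4 Ctrl groups of ICMs and 799 and 850.1 CPM in Ctrl morulae. The summed level of 10 trophectoderm markers in single Ctrl ICMs ran from 96.2 to 2818 CPM, with 3 above 1000 CPM: the Oct4 early ICM 9 (1287 CPM) and the Sox2 late ICMs 1-10 (2818 CPM) and 2-6 (2004 CPM). All 10 of these markers had UMIs in every ICM group. A library of a whole ICM cannot tell fewer cells that express a gene from less RNA per cell. Nothing in the labels says which embryos shared a mother, so p-values measure the spread between these embryos.

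Each difference below is a log2 fold change ± standard error (SE) from edgeR's quasi-likelihood test, with p-values adjusted by the Benjamini-Hochberg method over all genes tested. A gene was called when its adjusted p was under 0.05 and its log2 fold change at least 1 in size. The share of all tested genes called in the same comparison is given as the background. The KO, stage and MWT comparisons share Ctrl embryos, so they are not independent of each other.

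The genes lie on 8 chromosomes of mm10. Cldn4 (ENSMUSG00000047501, chromosome 5, 134945119 to 134946934, minus strand) is a single exon of 1816 bases. Cldn7 (ENSMUSG00000018569, chromosome 11, 69964779 to 69967885, plus strand) has up to 5 exons, and Cldn6 (ENSMUSG00000023906, chromosome 17, 23679249 to 23682446, plus strand) up to 3. Ocln (ENSMUSG00000021638, chromosome 13, 100496507 to 100552718, minus strand) has up to 9 exons and Tjp1 (ENSMUSG00000030516, chromosome 7, 65296165 to 65527781, minus strand) up to 28. Cdh1 (ENSMUSG00000000303, chromosome 8, 106603351 to 106670246, plus strand) has up to 17. Among the desmosomal genes, Dsp (ENSMUSG00000054889, chromosome 13, 38151294 to 38198577, plus strand) has up to 24 exons, Dsc2 (ENSMUSG00000024331) up to 18 and Pkp2 (ENSMUSG00000041957, chromosome 16, 16213318 to 16272712, plus strand) up to 13. Dsp overlaps the annotated transcript Gm10129 on the opposite strand over 499 bases at its 5′ end, and Tjp1 overlaps the annotations Gm44792, Gm44794 and Gm44795. The sources used here do not say whether reads were counted by strand, so reads from these overlaps cannot be told apart.

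Promoter windows of 300 bases, from 250 before to 50 after the start site, were at hand from RefSeq (GRCm38.p6, the mm10 assembly) for 6 of the genes. Those of Cldn4, Cldn7 and Dsp are printed because Cldn4 and Dsp were called in all 4 comparisons of KO with Ctrl ICMs and Cldn7 differed between the lines. Each reads 5′ to 3′ on the strand of the gene. Capitals mark matches, on either strand, to GGAATG (bound by TEAD factors), GCCNNNGGC (AP-2 factors) and CACCTG (the E-box bound by Snail and Zeb factors). AACCNGGTT (grainyhead factors) and ATGCAAAT (the octamer bound by Oct4) were also searched.
Cldn4, chr5:134946885-134947184, minus strand: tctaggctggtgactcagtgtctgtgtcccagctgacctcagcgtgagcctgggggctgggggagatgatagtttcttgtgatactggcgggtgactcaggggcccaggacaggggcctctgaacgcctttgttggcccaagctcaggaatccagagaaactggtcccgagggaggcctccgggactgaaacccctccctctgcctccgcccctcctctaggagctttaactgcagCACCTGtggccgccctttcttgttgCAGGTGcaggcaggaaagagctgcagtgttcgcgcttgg
Cldn7, chr11:69964529-69964828, plus strand: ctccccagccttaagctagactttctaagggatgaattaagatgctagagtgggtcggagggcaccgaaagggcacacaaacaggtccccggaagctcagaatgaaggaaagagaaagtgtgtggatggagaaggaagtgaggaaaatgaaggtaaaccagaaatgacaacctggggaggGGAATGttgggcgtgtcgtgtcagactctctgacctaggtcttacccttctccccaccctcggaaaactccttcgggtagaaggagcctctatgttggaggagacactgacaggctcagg
Dsp, chr13:38151044-38151343, plus strand: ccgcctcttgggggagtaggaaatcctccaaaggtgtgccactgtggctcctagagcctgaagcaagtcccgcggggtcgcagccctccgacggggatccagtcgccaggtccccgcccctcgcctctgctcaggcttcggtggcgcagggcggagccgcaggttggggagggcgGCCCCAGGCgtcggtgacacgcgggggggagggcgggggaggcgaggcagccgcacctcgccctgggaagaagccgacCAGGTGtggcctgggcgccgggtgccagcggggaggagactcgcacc
The Cldn4 window held the E-box 14 bases before the start site, and again 12 bases after it on the other strand. The Cldn7 window held GGAATG 70 bases before the start, and the window of its other start site (69965171 to 69965470) held the E-box 97 and 57 bases before. In the Dsp window the AP-2 motif lay 75 bases before the start and the E-box 4 bases after. Over the 8 windows of the 6 genes, the E-box was in 6, the AP-2 motif in 3, GGAATG in 2, and the grainyhead motif and the octamer in 0. Of all 32851 promoter windows, 20.2% held the E-box, 16.6% the AP-2 motif, 14.7% GGAATG, 1.74% the octamer and 0.271% the grainyhead motif. Windows of 1 gene can overlap, and a match of letters is a description, not a site of binding.

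Across the 16 groups the genes had unlike patterns. Cldn4, Cldn7 and Dsc2 had their highest group mean in Oct4 KO late ICMs (774, 505 and 41.8 CPM). Dsp was highest in Sox2 KO early ICMs (227 CPM), as was Cdh1 (291 CPM), while Cldn6 was highest in Oct4 Ctrl morulae (78.9 CPM). Tjp1 and Pkp2 were highest in Sox2 KO morulae (169.7 and 47.4 CPM) and Ocln in Sox2 MWT early ICMs (94.6 CPM). The range was narrowest for Cdh1, whose highest group mean was 1.90 times its lowest, and widest for Dsc2 (12.9 times) and Pkp2 (12.5 times). With the groups ranked by mean, neighbours mostly differed by less than the larger of their SDs. Of the 15 steps, 0 exceeded it for Cdh1, Cldn6 and Dsc2, 1 for each of Cldn4, Cldn7, Ocln and Tjp1, and 2 for each of Dsp and Pkp2. For Cldn4 and Cldn7 that step set Oct4 KO late ICMs above all other groups.

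**Figure D1:**
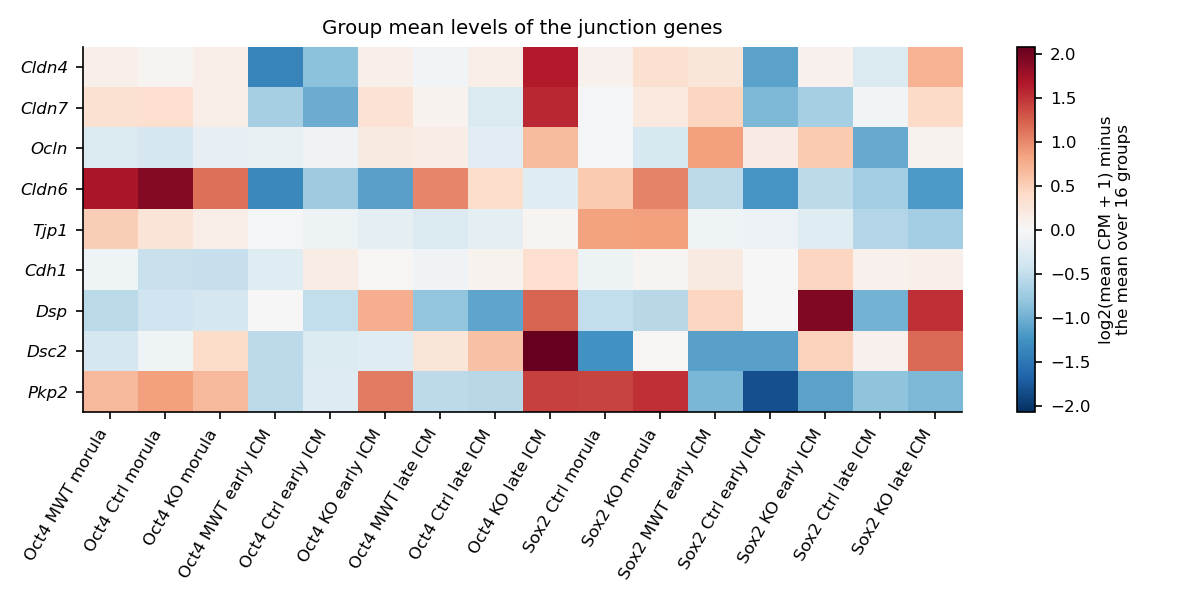
Group mean level of each junction gene (rows), as log2(mean CPM + 1) minus the gene's mean over the 16 groups (colour scale), for every line, genotype and stage (columns). Cldn4 and Cldn7 are at their highest in Oct4 KO late ICMs (774 and 505 CPM), and Cldn6 and Pkp2 in morulae.

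In Oct4 KO morulae no junction gene was called (0 of 9, background 0.804%). Cdh1, E-cadherin, was at 153 ± 23.0 CPM in KO and 154 ± 34.1 CPM in Ctrl morulae (SD, n = 8 each). None of the 9 had an unadjusted p under 0.05 in edgeR, as 12.2% of all genes did, and DESeq2 also called 0. With the replicate block, which leaves fewer embryos, Dsp and Dsc2 were called. The median log2 fold change of the 9 was 0.06, against 0.01 over all genes tested. Cldn6, a claudin of early embryonic epithelia, had the lowest value, -0.70 ± 0.38 (adjusted p 0.466), with all 8 KO morulae below the Ctrl median.

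In Oct4 KO early ICMs 4 of the 9 genes rose, Cldn4 and Cldn7 of the tight junction and Dsp and Pkp2 of the desmosome, and none fell. The background was 10.9% of genes called. The median log2 fold change over all 9 was 0.34, against 0.01 over all genes tested. Cldn6, Ocln, Tjp1, Cdh1 and Dsc2 were not called.

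Cldn7, a claudin of many epithelia, lay between 63.2 and 112 CPM in the 8 Oct4 Ctrl early ICMs (median 81.8) and between 140.3 and 342 CPM in the 8 KO (median 167). Every KO ICM was above every Ctrl ICM. The log2 fold change was 1.42 ± 0.25 (adjusted p 7.67e-06). Dsp, desmoplakin, which ties the desmosome to keratin filaments, had 18.1 to 63.5 CPM in Ctrl (median 37.2) and 69.5 to 137 CPM in KO (median 96.3). These groups did not overlap either, and the difference was 1.36 ± 0.33 (adjusted p 0.001). Against MWT in place of Ctrl it was not called (0.86 ± 0.37, adjusted p 0.093).

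Cldn4, a claudin of the trophectoderm, ranged from 65.6 to 273 CPM in Ctrl (median 132) and from 202 to 435 CPM in KO early ICMs (median 257). The groups overlapped through 1 Ctrl ICM, number 9, at 273 CPM, which was also the Oct4 Ctrl early ICM richest in trophectoderm marker RNA. The next Ctrl value was 147 CPM. The log2 fold change was 1.02 ± 0.22 (adjusted p 0.000207), close to the minimum for a call, and the call was lost with scaling by totals and with thinned counts (lowest value 0.95). Pkp2, a plakophilin of the desmosomal plaque, had 7.29 to 22.4 CPM in Ctrl (median 12.3) and 9.76 to 63.5 CPM in KO (median 34.3). Of the 8 KO ICMs, 7 were above the Ctrl median, and the difference was 1.47 ± 0.29 (adjusted p 6.52e-05). With the replicate block, which leaves fewer embryos, it was not called (1.30, adjusted p 0.0533).

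In Oct4 KO late ICMs 6 of the 9 genes rose and none fell: Cldn4, Cldn7 and Ocln of the tight junction and all 3 desmosomal genes. The background was 18.1% of genes called, and the median log2 fold change was 1.63 over the 9 and 0.00 over all genes tested. For Cldn4, Cldn7, Dsp and Pkp2 every KO late ICM was above every Ctrl late ICM. The share of all genes that separated in this way was not computed.

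Cldn4 had 101 to 434 CPM in the 8 Ctrl late ICMs (median 241) and 555 to 1049 CPM in the 8 KO (median 769). The difference was 1.63 ± 0.22 (adjusted p 1.31e-09). Cldn7 had 83.5 to 279.6 CPM in Ctrl (median 109) and 367 to 742 CPM in KO (median 492), a difference of 1.99 ± 0.25 (adjusted p 2.48e-10). Both claudins separated the genotypes. Ocln, occludin, had 15.04 to 70.4 CPM in Ctrl (median 45.1) and 41.9 to 141 CPM in KO (median 75.6). Here the groups overlapped, with 7 of 8 KO ICMs above the Ctrl median and a difference of 1.01 ± 0.25 (adjusted p 0.000652), just past the size for a call. The Ocln call was kept under 6 of 9 other settings, and was lost with scaling by totals, on rlog values and with the label set as a block. Against MWT in place of Ctrl, Ocln was not called (0.66 ± 0.24, edgeR adjusted p 0.0198).

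Dsp and Pkp2 had the largest late differences of the 9. Dsp had 15.3 to 45.4 CPM in Ctrl late ICMs (median 25.4) and 87.4 to 205 CPM in KO (median 139). That was a difference of 2.45 ± 0.35 (adjusted p 1.53e-08), or 5.46-fold. Pkp2 had 6.84 to 14.5 CPM in Ctrl (median 10.2) and 23.2 to 56.6 CPM in KO (median 44.4), a difference of 2.19 ± 0.31 (adjusted p 1.31e-08). Neither gene overlapped between the groups. Dsc2, a desmosomal cadherin (chromosome 18, 20030633 to 20059554, minus strand), had 2.79 to 40.0 CPM in Ctrl (median 11.2) and 15.9 to 78.7 CPM in KO (median 36.8). The Dsc2 groups overlapped, all 8 KO ICMs were above the Ctrl median, and the difference was 1.68 ± 0.46 (adjusted p 0.00246).

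The genes not called in Oct4 KO late ICMs were Cdh1, Tjp1 and Cldn6. Cdh1 was at 272 ± 53.0 CPM in KO and 224 ± 42.7 CPM in Ctrl (SD, n = 8 each), a difference of 0.39 ± 0.14 whose adjusted p 0.0219 passed the threshold but whose size did not. Tjp1, the zonula occludens scaffold that links claudins to actin, differed by 0.36 ± 0.16 (adjusted p 0.0727). Cldn6 had a mean of 17.1 CPM in KO and 26.5 CPM in Ctrl (-0.51 ± 0.47, adjusted p 0.446).

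**Figure D2:**
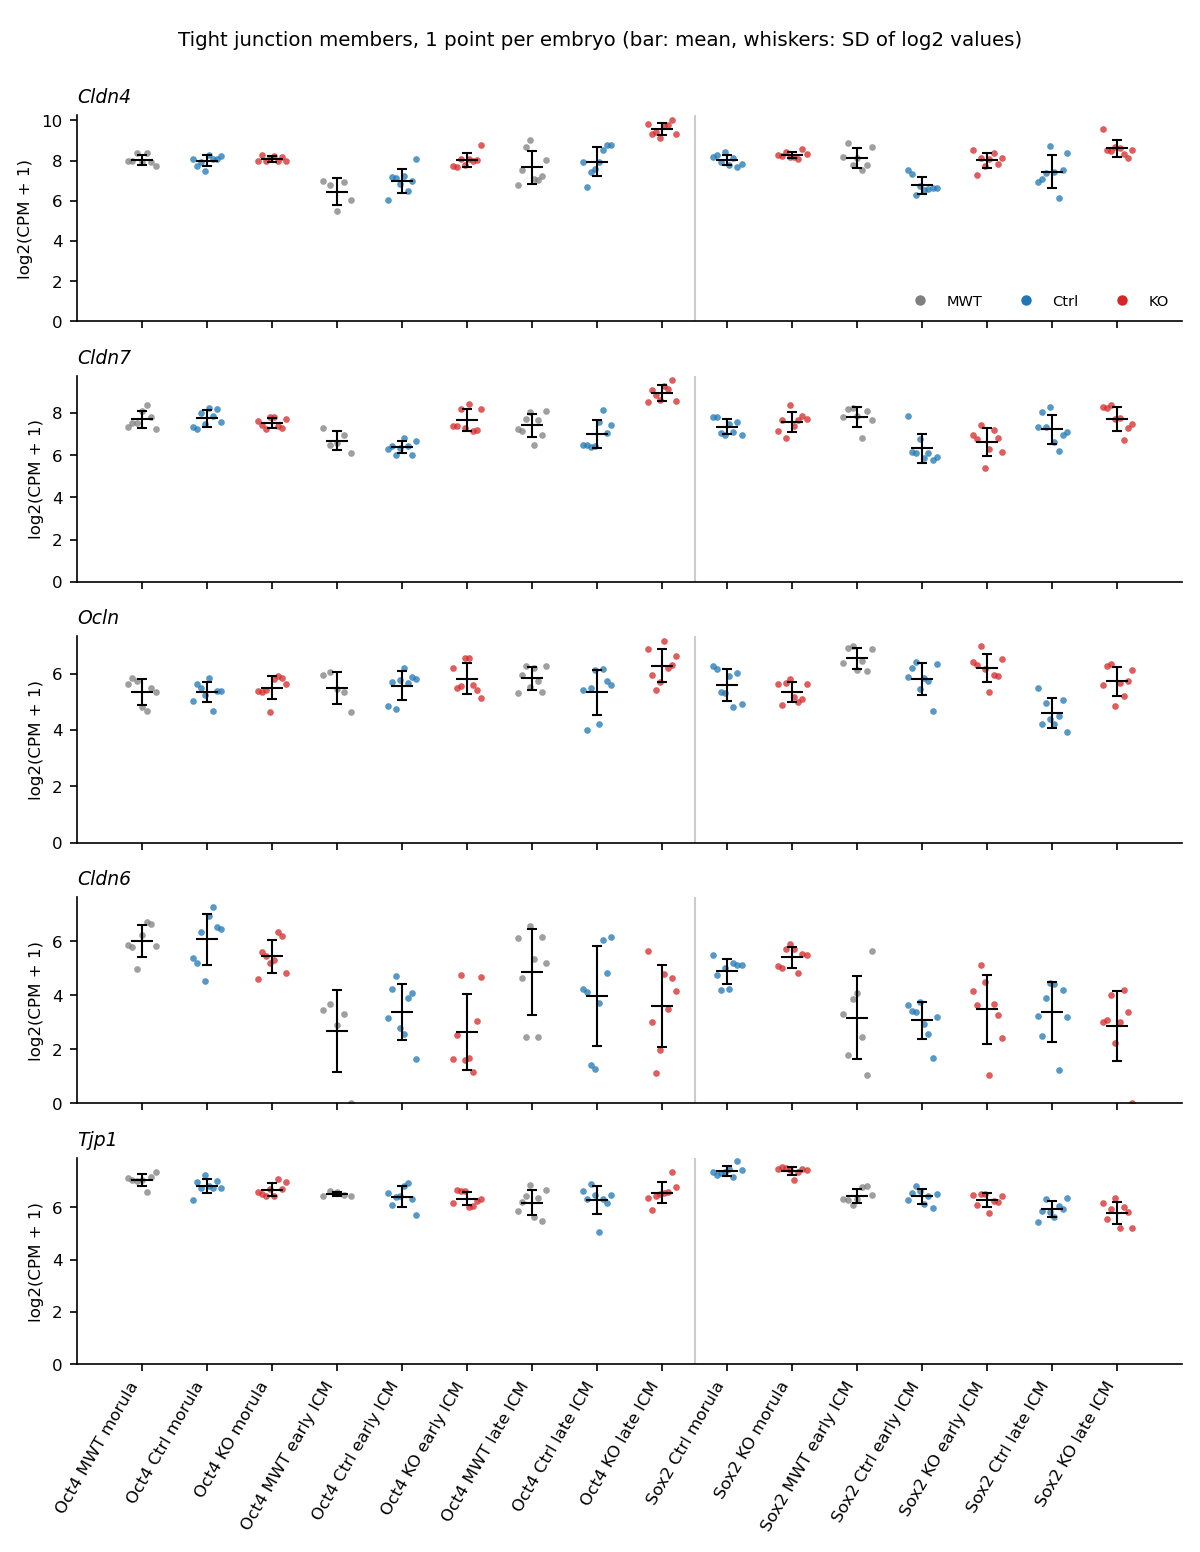
Level of the 5 tight junction genes in every embryo, as log2(CPM + 1), by group (grey MWT, blue Ctrl, red KO; vertical line between the lines; bar and whiskers, mean and SD of the log2 values). Cldn4 and Cldn7 in Oct4 KO late ICMs lie above all Oct4 Ctrl late ICMs, while Tjp1 and Cldn6 of KO and Ctrl ICMs overlap.

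In Sox2 KO morulae 0 of the 9 genes were called (background 0.00712%), in edgeR and in DESeq2. Dsc2 alone had an unadjusted p under 0.05 there, as 4.37% of all genes did: its mean was 9.29 CPM in KO and 3.23 CPM in Ctrl morulae, with all 8 KO above the Ctrl median (1.49 ± 0.57, adjusted p 1). Cdh1 was at 221 ± 23.0 CPM in KO and 197 ± 29.0 CPM in Ctrl (SD, n = 8 each). The median of the 9 log2 fold changes was 0.17, against 0.01 over all genes.

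In Sox2 KO early ICMs Cldn4, Dsp and Dsc2 rose against Ctrl, 3 of the 9 genes against a background of 3.26%, and none fell. Against MWT in place of Ctrl, Cldn4 was not called (-0.09 ± 0.24, adjusted p 0.845), and the Dsc2 call was lost on rlog values and with the replicate block, with an adjusted p of up to 0.353. The median log2 fold change of the 9 was 0.78, against -0.01 over all genes. Dsp had the largest difference of the 9. It ranged from 17.2 to 138 CPM in Ctrl (median 54.5) and from 147 to 275 CPM in KO (median 251). The groups did not overlap, and the difference was 1.99 ± 0.31 (adjusted p 1.94e-06), or 3.98-fold.

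Cldn4 had 77.02 to 183 CPM in Sox2 Ctrl early ICMs (median 98.2) and 155 to 364 CPM in KO (median 272). All 8 KO ICMs were above the Ctrl median, 1 of them below the highest Ctrl ICM, and the difference was 1.29 ± 0.22 (adjusted p 1.51e-05). Dsc2 was scarce, with 1.11 to 6.54 CPM in Ctrl (median 3.53) and 4.16 to 42.6 CPM in KO (median 8.89). Its groups overlapped, and the 92 UMIs of the 8 KO ICMs against 27 in Ctrl gave 1.84 ± 0.57 (adjusted p 0.0301). Cdh1 was at 291 ± 37.6 CPM in KO and 213 ± 24.9 CPM in Ctrl (SD, n = 8 each), with all 8 KO above the Ctrl median, a difference of 0.51 ± 0.14 (adjusted p 0.00879) that fell short of the size for a call. Cldn7 differed by 0.31 ± 0.25 (adjusted p 0.542).

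In Sox2 KO late ICMs Cldn4, Ocln and Dsp rose, 3 of 9 against a background of 6.97%, and none fell. The median log2 fold change was 0.54 over the 9 and 0.00 over all genes. Dsp ranged from 9.56 to 51.8 CPM in Ctrl (median 27.9) and from 73.7 to 221 CPM in KO (median 174). No Ctrl ICM reached the lowest KO ICM. The difference of 2.60 ± 0.34 (adjusted p 2.79e-09), or 6.08-fold, was the largest of the 9 genes in the 6 comparisons of KO with Ctrl.

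Cldn4 had 70.5 to 417 CPM in Sox2 Ctrl late ICMs (median 169) and 279 to 769 CPM in KO (median 370.4). The overlap came from the Ctrl ICMs 1-10 (417 CPM) and 2-6 (328 CPM), the richest of their group in trophectoderm marker RNA. The difference was 1.14 ± 0.22 (adjusted p 3.98e-05). Ocln had 14.2 to 44.2 CPM in Ctrl (median 20.8) and 28.1 to 79.0 CPM in KO (median 51.0), with all 8 KO above the Ctrl median and a difference of 1.24 ± 0.26 (adjusted p 0.000213).

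Cldn7 was at 224 ± 79.5 CPM in Sox2 KO late ICMs and 164 ± 81.0 CPM in Ctrl (0.54 ± 0.24, adjusted p 0.133), and Dsc2 differed by 1.22 ± 0.48 (adjusted p 0.0782). Without the 3 Ctrl ICMs above 1000 CPM of trophectoderm markers, an alternative chosen after seeing the data, Dsc2 passed (1.96, adjusted p 0.0063). Pkp2 averaged 7.86 CPM in KO and 8.52 CPM in Ctrl, with a difference of -0.06 ± 0.37 whose 95% interval ran from -0.80 to 0.68. Without those 3 Ctrl ICMs its sign turned (0.66, adjusted p 0.336).

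**Figure D3:**
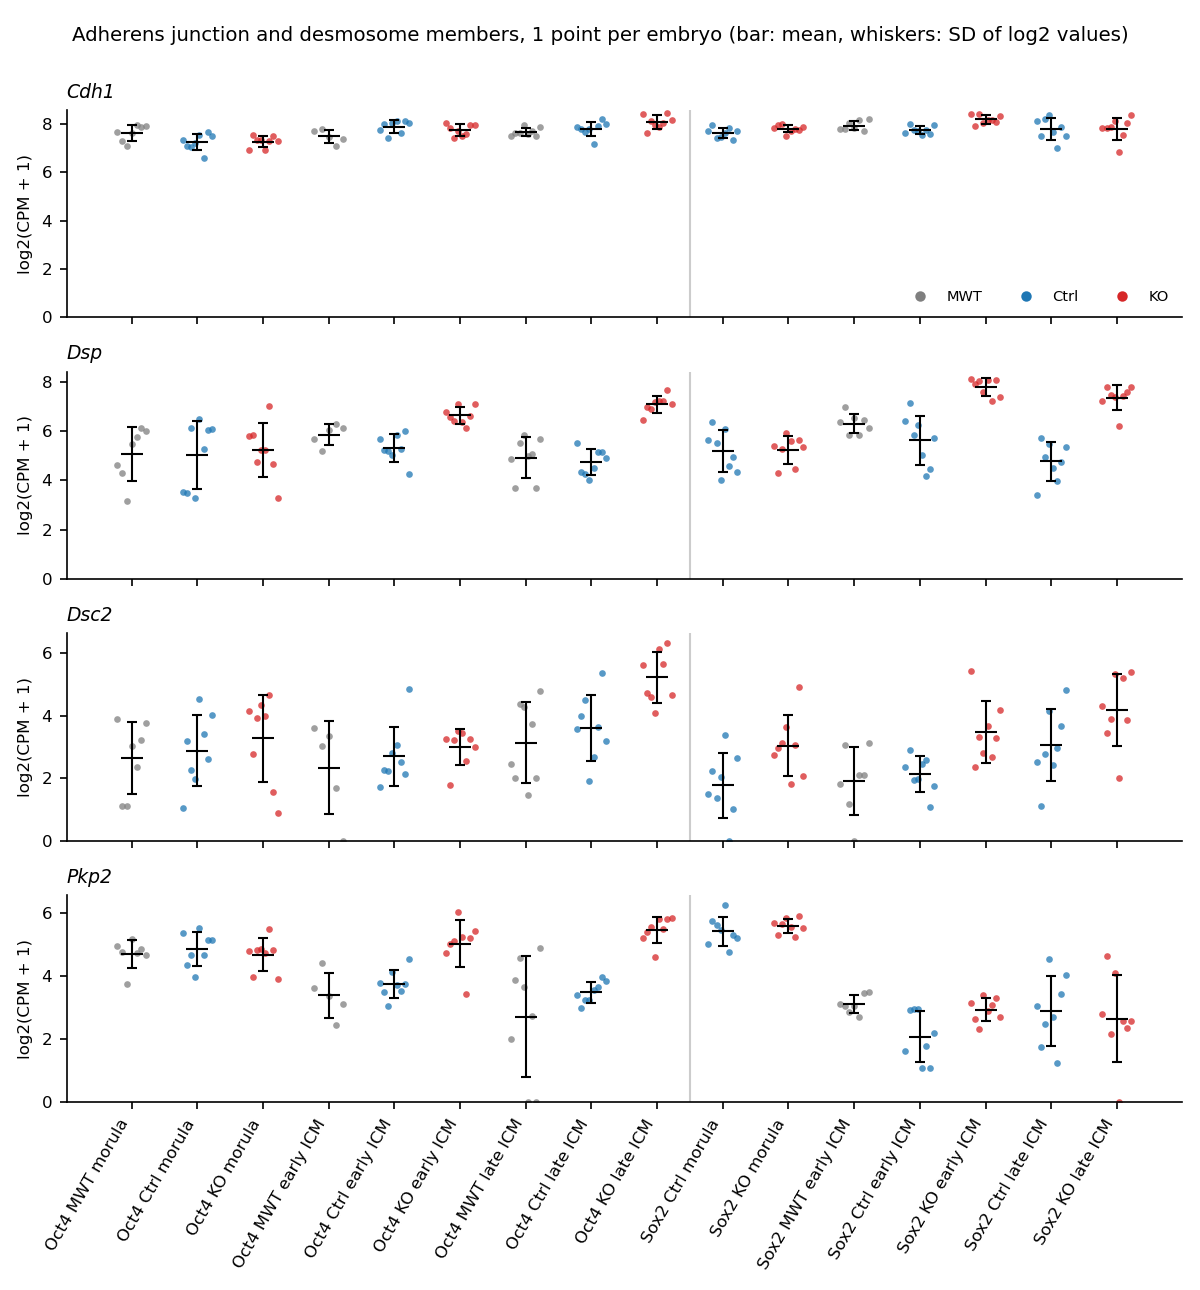
Level of the adherens junction gene Cdh1 and the 3 desmosomal genes in every embryo, as log2(CPM + 1), by group (grey MWT, blue Ctrl, red KO; vertical line between the lines; bar and whiskers, mean and SD of the log2 values). Dsp of KO ICMs lies above that of Ctrl ICMs of the same line and stage in all 4 pairs of groups, and Pkp2 does so in Oct4 late ICMs but overlaps in the Sox2 line.

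The KO effects of the lines were compared directly, as the Oct4 effect minus the Sox2 effect. In early ICMs 1 of the 9 genes differed (background 5.52%): the effect on Cldn7 was larger in the Oct4 line, by 1.10 ± 0.36 (adjusted p 0.0372), a call lost on rlog values (0.89, adjusted p 0.0627). In late ICMs 2 differed (background 6.33%), Cldn7 by 1.45 ± 0.35 (adjusted p 0.00275) and Pkp2 by 2.25 ± 0.49 (adjusted p 0.000936). Pkp2 lost that call without the 3 Ctrl ICMs above 1000 CPM of trophectoderm markers (1.54, adjusted p 0.0599). For Dsp the late difference between lines was -0.15 ± 0.49 with a 95% interval from -1.13 to 0.82, and for Cldn4 it was 0.49 ± 0.30 with an interval from -0.11 to 1.09. Cdh1 differed in early ICMs by -0.58 ± 0.19 (adjusted p 0.0447), short of the size for a call.

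Between stages, no gene's KO effect was called as different. In the Oct4 line 0 of 9 were called (background 3.11%). All but Cldn6 had a higher log2 fold change late than early there, and 4 had an unadjusted p under 0.05 (Cldn4, Cdh1, Dsp and Dsc2), as 17.8% of all genes did. Dsp differed by 1.09 ± 0.48 (adjusted p 0.204) and Dsc2 by 1.61 ± 0.72 (adjusted p 0.209). In the Sox2 line 0 of 9 were called (background 0.0427%), with 2 at an unadjusted p under 0.05, Cdh1 (-0.40 ± 0.19) and Ocln (0.80 ± 0.35), as were 10.6% of all genes. DESeq2 called 0 in both lines.

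**Figure D4:**
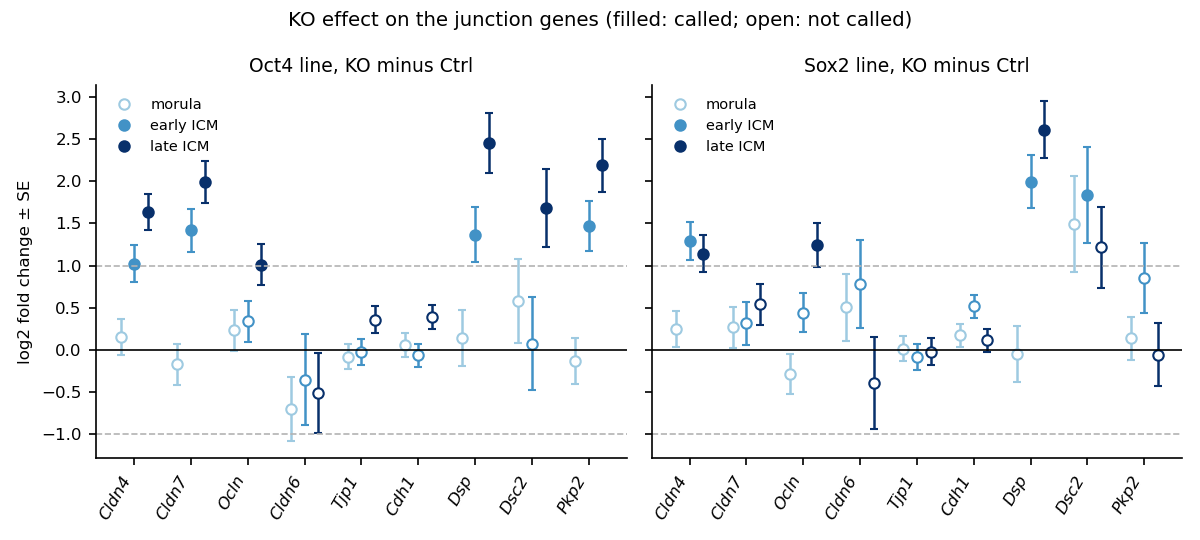
Log2 fold change of KO minus Ctrl (vertical axis, ± SE) for the 9 genes in the Oct4 line (left) and the Sox2 line (right) at 3 stages (light to dark blue); filled points were called, and dashed lines mark the size for a call. Dsp and Cldn4 are above the upper line in all 4 ICM comparisons, Cldn7 and Pkp2 in the ICMs of the Oct4 line alone, and Tjp1 and Cdh1 lie between the lines throughout.

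Markers of other cell types moved between the same groups, and their counts stand beside 10.9%, 18.1%, 3.26% and 6.97% of all genes called in Oct4 early, Oct4 late, Sox2 early and Sox2 late ICMs. Of the 10 trophectoderm markers, 3 were called higher and 1 lower in Oct4 KO early ICMs, 9 higher in Oct4 KO late ICMs, 4 higher in Sox2 KO early ICMs, and 4 in Sox2 KO late ICMs, of which 3 were higher. Their summed level ran from 237 to 1287 CPM in Oct4 Ctrl and 717 to 1395 CPM in Oct4 KO early ICMs. In late ICMs of the Oct4 line the ranges were 148 to 976 CPM in Ctrl and 1402 to 3111 CPM in KO, with no overlap. In the Sox2 line they were 96.2 to 491 CPM in Ctrl and 452 to 1937 CPM in KO early ICMs, and 137 to 2818 CPM and 538 to 1718 CPM in late ICMs, where the KO range lay within that of Ctrl. The keratin genes Krt8 and Krt18 were the largest parts of that late sum, averaging 388 and 353 CPM in Ctrl and 448 and 250 CPM in KO. Gata3, Cdx2 and Eomes averaged 68.4, 10.3 and 13.4 CPM in Ctrl and 185.5, 35.8 and 28.5 CPM in KO. Gata2 and Elf5 went the other way, with 17.6 and 7.89 CPM in Ctrl and 3.42 and 1.87 CPM in KO.

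The epiblast markers went the other way. Of 8, 5 were called lower in Oct4 KO early, 8 in Oct4 KO late, 5 in Sox2 KO early and 5 in Sox2 KO late ICMs, and none higher, with median log2 fold changes of -1.65, -3.11, -1.36 and -1.74. The 8 markers include Sox2 itself, so its fall in the Sox2 line, and its part in their median and sum there, was set by the design. Their summed level averaged 3074 CPM in Oct4 Ctrl and 818 CPM in Oct4 KO late ICMs, and 2941 and 1655 CPM in the Sox2 late groups. Of the 11 primitive endoderm markers 9 were tested. In Oct4 KO late ICMs 2 of them rose and 4 fell, with a median log2 fold change of -1.40. Their summed level was higher in KO, 1344 CPM on average against 726 CPM in Ctrl, with most of the KO sum from the 2 that rose, Dab2 (699 and 156 CPM in KO and Ctrl) and Gata6 (402 and 182 CPM), while the endoderm factor gene Sox17 averaged 0.725 CPM in KO and 78.2 CPM in Ctrl. In Oct4 KO early ICMs 1 rose and 2 fell (median -0.28), in Sox2 KO early ICMs 1 rose and none fell (median -0.04), and in Sox2 KO late ICMs 1 fell and none rose (median 0.03). The part of the epiblast and primitive endoderm markers in these results was not tested.

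Levels of Dsp and Cldn4 in the 3 Ctrl ICMs richest in trophectoderm marker RNA are given as a description, with no test. In the Sox2 Ctrl late ICMs 1-10 and 2-6, with 2818 and 2004 CPM of trophectoderm markers, Dsp was at 43.2 and 40.2 CPM, above the median of their group (27.9 CPM) and below the 73.7 CPM of the lowest KO ICM. Cldn4 was likewise above its group's median (169 CPM) in both, at 417 and 328 CPM, within the KO range. The Oct4 Ctrl early ICM 9, with 1287 CPM of the markers, had the lowest Dsp of its group, 18.1 CPM, and the highest Cldn4, 273 CPM. An alternative chosen after seeing the data added the log2 summed marker level of each ICM as a covariate to a fit of the 64 Ctrl and KO ICMs. The markers themselves differ between the genotypes, and in Oct4 late ICMs without overlap, so the fit can take out part of a KO effect. It takes out only what a common slope on the log2 sum, over the 64 ICMs, predicts, so a part shared with the markers can remain. In Oct4 late ICMs it extends that slope across the gap between the genotypes.

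With the covariate, Dsp was called in all 4 ICM comparisons, at 1.16 ± 0.28 (early) and 2.09 ± 0.34 (late) in the Oct4 line and 1.84 ± 0.26 (early) and 2.51 ± 0.27 (late) in the Sox2 line, with edgeR adjusted p-values of 0.00208, 3.38e-06, 1.5e-06 and 2.29e-10. Cldn4 was called in none, at 0.56, 0.67, 0.76 and 0.94 in the same order, each with an adjusted p under the threshold but below the size for a call. Cldn7 was called in the Oct4 line (1.04 and 1.27). Pkp2 was called in Oct4 late ICMs (1.13) and not early (0.92), and Ocln in late ICMs of both lines (1.08 and 1.27). In the same 64 ICMs without the covariate Ocln fell just short of the size for a call in the Oct4 line (0.999). Dsc2 was called in none. In Oct4 late ICMs its difference was 0.30 ± 0.52 (edgeR adjusted p 0.735) with the covariate and 1.67 without it. The members called were Cldn7 and Dsp against a background of 9.1% in Oct4 early ICMs, Cldn7, Ocln, Dsp and Pkp2 against 12.9% late, Dsp alone against 2.17% in Sox2 early ICMs, and Ocln and Dsp against 6.59% late.

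**Figure D5:**
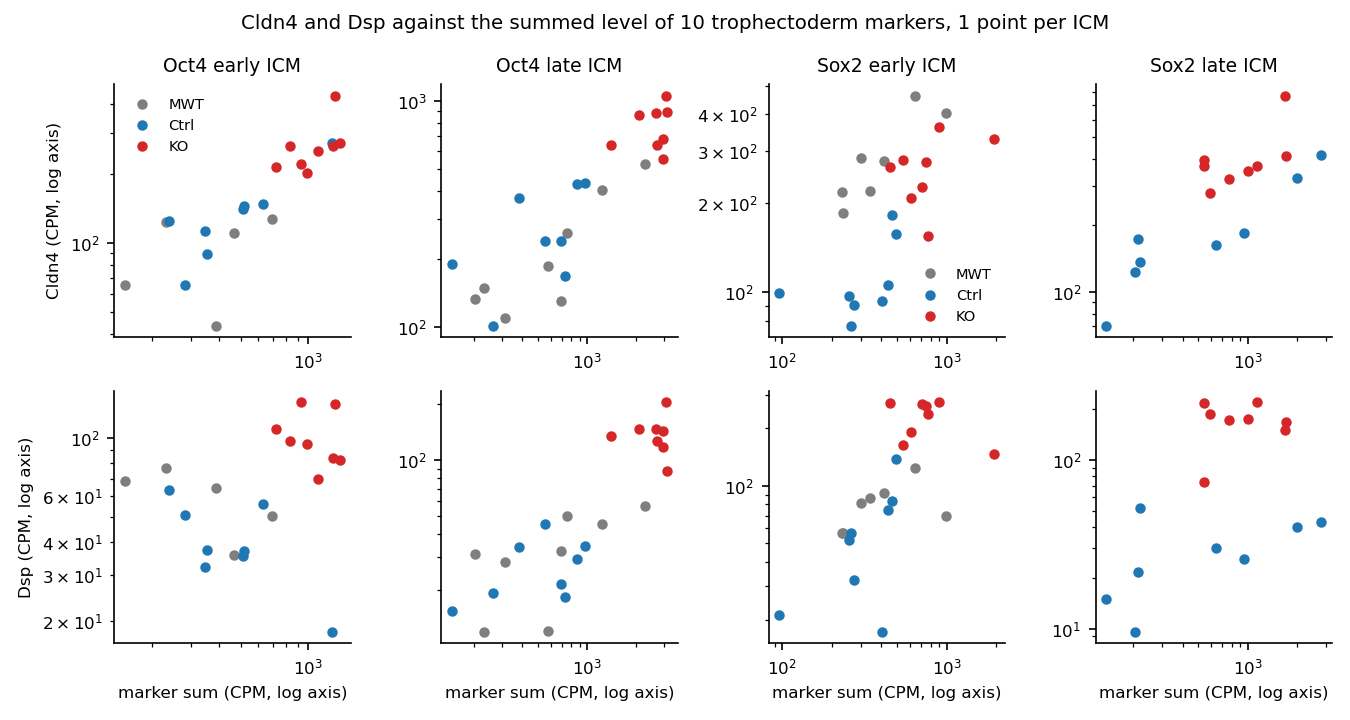
Level of Cldn4 (top) and Dsp (bottom) against the summed level of 10 trophectoderm markers in each ICM (both axes in CPM, log scales), by line and stage (grey MWT, blue Ctrl, red KO). In Sox2 late ICMs Dsp is higher in every KO than in every Ctrl ICM, while the Cldn4 values of the 2 Ctrl ICMs with the most marker RNA (417 and 328 CPM) lie within the KO range.

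The numbers of the late Ctrl and KO ICMs fall into 2 label sets, beginning with 1 or 2, whose meaning the labels do not give. In the Oct4 line the log2 ratio of mean CPM, KO over Ctrl, was 2.31 and 2.27 for Dsp in the first and second set, 2.05 and 2.00 for Pkp2, 2.05 and 1.57 for Cldn7, and 1.87 and 1.06 for Cldn4. Cldn4 in Ctrl averaged 189 CPM in the first set (n = 5) and 412 CPM in the second (n = 3). In the Sox2 line the ratio was 2.41 and 2.67 for Dsp, 1.04 and 1.28 for Ocln, and 1.18 and 0.86 for Cldn4. For Ocln in the Oct4 line it was 0.86 and 0.78, and for Dsc2 there 1.33 and 1.49. The genes called in late ICMs thus had the same direction within both sets. Among those not called, the signs of the sets were opposite for Pkp2 in the Sox2 line (0.43 and -1.20), Cldn6 in the Oct4 line (0.59 and -1.49), Cdh1 in the Sox2 line (-0.17 and 0.27) and Tjp1 in both (-0.07 and 0.55 in the Oct4 line, 0.14 and -0.42 in the Sox2 line). The trophectoderm marker sums of Sox2 KO late ICMs did not overlap between the sets, with 998 to 1718 CPM in the first and 538 to 772 CPM in the second. Mean levels in these KO ICMs were 476 and 342 CPM for Cldn4, 284.5 and 163 CPM for Cldn7, and 179 and 163 CPM for Dsp.

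From morula to early ICM, Cldn6 and Pkp2 fell in Ctrl embryos of both lines. In the Oct4 line 3 of the 9 genes fell and none rose (background 29%), and in the Sox2 line 4 fell and none rose (background 31.9%). These shares are not far from those of all genes, so the values below describe single genes. Cldn6 fell in Oct4 Ctrl embryos from 78.9 ± 45.0 to 11.8 ± 7.90 CPM (SD, n = 8 each), a difference of -2.83 ± 0.44 (adjusted p 7.72e-08). In Sox2 Ctrl embryos it fell from 30.1 ± 9.05 to 8.17 ± 3.44 CPM (-1.91 ± 0.48, adjusted p 0.000429), without overlap. That call was lost with the replicate block (-0.95, adjusted p 0.197) and in the same embryos without it (-0.96, adjusted p 0.191). Pkp2 fell from 29.5 ± 10.5 to 13.0 ± 4.61 CPM in the Oct4 line (-1.25 ± 0.29, adjusted p 0.000215), a call lost with thinned counts (-0.80) and, by size, on rlog values.

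In the Sox2 line Pkp2 had 26.2 to 75.0 CPM in the 8 Ctrl morulae (median 40.4) and 1.10 to 6.78 CPM in the 8 early ICMs (median 3.00). The groups did not overlap, and the difference was -3.50 ± 0.34 (adjusted p 1.49e-15). Cldn7 fell in the Oct4 line (-1.49 ± 0.25, adjusted p 4.98e-07, no overlap), and in the Sox2 line its difference was -0.95 ± 0.25 (adjusted p 0.000869). Cldn4 fell in the Sox2 line (-1.29 ± 0.22, adjusted p 4.75e-07, no overlap), and its difference in the Oct4 line was -0.99 ± 0.22 (adjusted p 8.99e-05). Whether these stage differences differ between the lines was not tested. Tjp1 went in the Sox2 line from 168 ± 22.2 to 86.1 ± 16.1 CPM, without overlap (-1.03 ± 0.15, adjusted p 7.23e-09). It passed the size for a call by little and was called under 4 of 9 other settings. With scaling by totals, thinned counts, rlog values and DESeq2 its size fell short, and with the replicate block it was -0.56, adjusted p 0.192.

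Cdh1 had the opposite sign in the Oct4 line, with 154 CPM in Ctrl morulae and 237 CPM in early ICMs (0.52 ± 0.14, adjusted p 0.00104, below the size for a call). From early to late ICM, 1 of the 9 genes rose in Oct4 Ctrl embryos (background 15.6%), Cldn4 by 1.01 ± 0.22 (adjusted p 0.000131). That is no more than the share of all genes, and the call was kept under only 3 of 8 other settings, its log2 fold change lying between 0.91 and 1.05. In Sox2 Ctrl embryos 2 fell (background 2.9%), Ocln with -1.28 ± 0.26 (adjusted p 0.000522) and Dsp with -1.04 ± 0.35 (adjusted p 0.0485). The Dsp call was kept under only 2 of 8 other settings and was lost in DESeq2 among others, with values from -1.04 to -0.73 and an adjusted p of up to 0.123. Without the 3 Ctrl ICMs above 1000 CPM of trophectoderm markers, Dsp was no longer called there (-1.24, adjusted p 0.0535), Dsc2 was called higher in Oct4 Ctrl late than early ICMs (1.63, adjusted p 0.016), and Cldn4 was called lower in Oct4 Ctrl early ICMs than in morulae (-1.24, adjusted p 1.1e-07).

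Ctrl embryos, which lacked the maternal gene, were compared with MWT embryos, whose mothers had not lost it. The groups also come from different crosses, and the Oct4 MWT ICMs differ from Ctrl in their stage labels and the early ones in the inhibitor label, which cannot be told apart from the maternal gene. In the Oct4 line 0 of 9 genes were called in morulae (background 0.0646%), early ICMs (0.373%) or late ICMs (0.804%), in edgeR or in DESeq2. At an unadjusted p under 0.05 in edgeR there were 1, 2 and 0, against 7.2%, 9.53% and 13.9% of all genes. In early ICMs Cdh1 was at 179 ± 32.7 CPM in MWT (SD, n = 5) and 237 ± 40.3 CPM in Ctrl (SD, n = 8; edgeR adjusted p 0.227).

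In Sox2 early ICMs, 2 of 9 genes were lower in Ctrl than in MWT and none higher (background 2.58%). Cldn4 lay between 186 and 462 CPM in the 7 MWT ICMs (median 278) and between 77.02 and 183 CPM in the 8 Ctrl. The groups did not overlap, and the difference was -1.40 ± 0.25 (adjusted p 4.49e-05). Cldn7 lay between 111 and 302 CPM in MWT (median 231) and between 54.2 and 229 CPM in Ctrl (median 67.6), overlapping, with a difference of -1.40 ± 0.26 (adjusted p 8.57e-05). Ocln differed by -0.71 ± 0.23 (adjusted p 0.0493) and Dsp by -0.46 ± 0.33 (adjusted p 0.455). Trophectoderm marker sums of these groups overlapped, 230.1 to 990.4 CPM in MWT and 96.2 to 491 CPM in Ctrl, while primitive endoderm marker sums did not, 985 to 1495 CPM in MWT and 229 to 903 CPM in Ctrl. Their part in these differences was not tested.

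Setting KO embryos against MWT instead of Ctrl, an alternative chosen after seeing the data, gave a further reading of the same KO embryos. In Sox2 early ICMs Dsp (1.55 ± 0.32, adjusted p 0.000148, no overlap) and Dsc2 (1.82 ± 0.61, adjusted p 0.0261) were higher in KO than in MWT, and Cldn7 was lower (-1.07 ± 0.25, adjusted p 0.00104), 3 of 9 against a background of 7.69%. Cldn4, which was higher in KO than in Ctrl, averaged 264 CPM in KO and 293 CPM in MWT (-0.09 ± 0.24, adjusted p 0.845). In the Oct4 line edgeR called 0 of 9 in morulae (background 2.14%, with 2 of the 9 and 16.7% of all genes at an unadjusted p under 0.05).

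In Oct4 early ICMs Cldn4, Cldn7 and Pkp2 were higher in KO than in MWT, 3 of 9 against a background of 9.57%. The 5 MWT ICMs had 127, 111, 43.4, 122.6 and 65.6 CPM of Cldn4. All 5 were below the lowest KO ICM, at 202 CPM, and the difference was 1.61 ± 0.29 (adjusted p 8.66e-06). Dsp had 50.1, 35.7, 64.7, 76.9 and 68.4 CPM in MWT and was not called (0.86 ± 0.37, adjusted p 0.093). In late ICMs 5 of 9 were called, all higher in KO, against a background of 20%: Cldn4 (1.88 ± 0.24), Cldn7 (1.66 ± 0.24), Dsp (2.23 ± 0.34), Dsc2 (2.07 ± 0.48) and Pkp2 (2.24 ± 0.34). Ocln was at 57.9 ± 16.1 CPM in MWT late ICMs (SD, n = 8) and was not called (0.66 ± 0.24, edgeR adjusted p 0.0198).

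Other junction genes were read from lists of related proteins that leave out the 9. In KO morulae none of the 59 tested genes of the 7 lists was called in either line, by edgeR or DESeq2 (5 of them had an unadjusted p under 0.05 in edgeR in the Oct4 line and 5 in the Sox2 line). Of all genes 0.804% and 0.00712% were called there, and 12.2% and 4.37% had such a p. In Oct4 KO early ICMs, where 10.9% of all genes were called in either direction, 3 of 13 tested tight junction genes rose (median log2 fold change 0.07, against 0.01 over all genes), among them Cgnl1, paracingulin (2.44 ± 0.40, adjusted p 1.06e-06), and Marveld2, tricellulin (1.43 ± 0.34, adjusted p 0.000872). Of 13 polarity genes 1 rose, Crb3 of the apical Crumbs complex (1.44 ± 0.30; median of the list 0.00). Of 11 adherens junction genes 1 fell, Vcl, vinculin (-1.42 ± 0.28, list median -0.10), and of 6 desmosomal genes 1 fell, Pkp4 (-1.10 ± 0.23, list median -0.45). Of 5 gap junction genes 3 fell, among them the connexin gene Gjb5 (-1.28 ± 0.31, list median -1.28). The single calls among the polarity, adherens junction and desmosomal genes are near the share of all genes. Among 7 epithelial regulators 3 rose, including the grainyhead factor Grhl2 (1.33 ± 0.24, list median 1.01). Of 4 mesenchymal genes 0 were called by edgeR or DESeq2, with 1 at an unadjusted p under 0.05 in edgeR, as 32.2% of all genes were (list median -0.72).

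In Oct4 KO late ICMs, where 18.1% of all genes were called, 5 of 13 tight junction genes rose and 2 fell (median 0.98, against 0.00 over all genes), with Cgnl1 at 2.23 ± 0.43 and Marveld2 at 1.95 ± 0.38. Of 13 polarity genes 4 rose and 1 fell (median 0.33), among the risers the atypical protein kinase C gene Prkcz (1.69 ± 0.17) and Crb3 (1.59 ± 0.27). Of 7 epithelial regulators 6 rose and 1 fell (median 1.40): the splicing factor gene Esrp1 had 1.40 ± 0.22, and Grhl3, a grainyhead factor, had -2.85 ± 0.52. Of 6 desmosomal genes 1 rose, Perp (2.15 ± 0.34, list median 0.37), while 1 of 11 adherens junction genes and 1 of 5 gap junction genes fell (medians 0.01 and -0.34). The single calls in these 3 lists are near or below the share of all genes. Of 4 mesenchymal genes 3 fell (median -2.17), among them Snai1, the Snail repressor of E-cadherin (-2.10 ± 0.50).

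In the Sox2 line few list genes were called. In Sox2 KO early ICMs edgeR called 0 of the 59 tested genes of the 7 lists and DESeq2 0, with 18 at an unadjusted p under 0.05 in edgeR. Of all genes 3.26% were called and 19.6% had such a p. In Sox2 KO late ICMs, where 6.97% of all genes were called, 1 of 13 tight junction genes rose, Cgn, cingulin (1.17 ± 0.24, adjusted p 0.000191, list median 0.40), and 1 of 13 polarity genes, Pard6b of the Par complex (1.21 ± 0.18, adjusted p 1.42e-07, list median 0.35). Both counts are near the share of all genes. A gap junction gene and an epithelial regulator fell, and a mesenchymal gene rose. None of the 17 adherens junction and desmosomal list genes was called in Sox2 KO late ICMs by edgeR or DESeq2, with 6 at an unadjusted p under 0.05 in edgeR. Of all genes 26.4% had such a p. The median log2 fold change was 0.02 over the adherens junction list and -0.78 over the desmosomal list, opposite in sign to that of Dsp.

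The genes whose group means most resembled those of each member over the 16 groups were taken from 7918 genes by Pearson's r of log2(mean CPM + 1), as a description, since all genes share the same libraries. Cldn4 and Cldn7 were among each other's closest (r = 0.87), and S100a11, a calcium-binding protein gene, was close to both (0.86 and 0.86). Dsp was most like Sgpp1 (0.93), Shroom3 (0.90) and Proser2 (0.90). Dsc2 was close to the keratin gene Krt8 (0.88), which is one of the trophectoderm markers above, and to Cryzl2 (0.88) and Dnmbp (0.82). Pkp2 was closest to Smpdl3a and Slc46a1 (0.95 and 0.95) and Lmo7 (0.93). Cldn6 was closest to Siah1a (0.93), Tjp1 to Hars2 (0.94), Cdh1 to Nck2 (0.89) and Ocln to Zfp395 (0.78).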

How the data were processed

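Single-embryo 3′-end RNA-seq libraries were made by the authors, who extracted UMIs with UMI-tools, trimmed with Cutadapt, aligned to mm10 with TopHat2, assigned reads with featureCounts and counted unique transcripts with TRUmiCount. The deposited counts are whole UMIs per gene for 29022 genes, and the authors also deposited log2 values (rlog from DESeq2) for 15747 genes. Groups came from the labels. Counts were tested with edgeR 4.0.16 (quasi-likelihood F test, TMM scaling) in R 4.3.3, after keeping genes detected in at least a 0.5 share of the embryos of some stage. KO, stage and line comparisons used 96 Ctrl and KO embryos (14053 genes), and comparisons with MWT all 123 embryos (13923 genes). The SE is the size of the log2 fold change divided by the square root of F. Libraries held 525755 to 1344035 UMIs, and counting error limits scarce genes such as Dsc2. Alternatives used limma 3.58.1 on the rlog values, DESeq2 1.42.0, other scaling, no detection filter, thinned counts, 2-group fits, a replicate block and left-out libraries. Replicate numbers were not treated as pairs. No 2 libraries agreed within sampling noise: over 416 pairs within groups, the chi-square per gene was at least 2.41 (median 4.76). The script was tested on simulated data.

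The members and gene lists were chosen with earlier results of these data known. All 9 members are named in each main comparison. From each list the called genes with the largest log2 fold changes were named, up to 2, where the higher group averaged at least 20 CPM, and of the genes most like each member, up to 3.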

Additional observations from a re-analysis of the deposited data

Results flagged for a closer look

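Within-group gaps were examined in 144 combinations of a junction gene and a group with Dixon's test, and 11 held an embryo that stood apart, 10 high and 1 low. Chance flags about 1 in 20 groups. Oct4 Ctrl early ICM 9, the one richest in trophectoderm marker RNA in its group, stood apart for both Cldn4 (272.9 CPM, next 147.1) and Dsc2 (27.71 CPM, next 7.294). Oct4 KO morula 7 stood apart for both Dsp (129.4 CPM, next 55.93) and Pkp2 (43.98 CPM, next 28.11). Cldn4 was high in Oct4 KO early ICM 18 (435.3 CPM, next 271.2) and in Sox2 KO late ICM 1-1 (768.6 CPM, next 413.3). Cldn7 was high in Sox2 Ctrl early ICM 2 (229.4 CPM, next 107.5), and Cldn6 in Sox2 MWT early ICM 15 (49.13 CPM, next 15.95). Dsc2 was high in Sox2 KO morula 19 (29.41 CPM, next 11.57) and in Sox2 KO early ICM 1 (42.58 CPM, next 17.34). The low value was Tjp1 in Sox2 KO morula 9 (131.1 CPM, next 161.3).

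The KO effect on 2 genes differed between the lines by a test of the difference itself, as the Oct4 effect minus the Sox2 effect on the log2 scale. It was 1.10 for Cldn7 in early ICMs (not called on rlog values), 1.45 for Cldn7 in late ICMs and 2.25 for Pkp2 in late ICMs.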

How the results depend on the processing

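Over all alternatives there were 1719 recomputed differences of single junction genes, of which 1580 kept their direction and their side of the threshold, 67 changed sign without a call under either setting (65 of them with a log2 fold change under 0.5 in size as reported), 47 lost a call, 23 gained one and 2 changed sign with a call. Both of the last came in Sox2 KO early ICMs with MWT embryos in place of Ctrl, where the log2 fold change was -0.0927 for Cldn4 and -1.07 for Cldn7. Dsp was called in all 4 comparisons of KO with Ctrl ICMs under each of the 9 or 10 settings of scaling, filter, tool, block and left-out library, but not in Oct4 early ICMs with MWT in place of Ctrl (0.86, adjusted p 0.093). Among the calls of KO against Ctrl, Cldn4 in Oct4 KO early ICMs was lost with scaling by totals and with thinned counts, Ocln in Oct4 KO late ICMs with scaling by totals, on rlog values and with the label set as a block, Dsc2 in Sox2 KO early ICMs on rlog values and with the replicate block, and Pkp2 in Oct4 KO early ICMs with the replicate block. Ocln in Oct4 KO late ICMs was also not called with MWT in place of Ctrl (0.66, edgeR adjusted p 0.0198). Of the falls from morula to early Ctrl ICM, Tjp1 in the Sox2 line was lost with scaling by totals, thinned counts, rlog values, DESeq2 and the replicate block, Cldn6 in the Sox2 line with the replicate block, and Pkp2 in the Oct4 line with thinned counts and on rlog values.

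The number of the 9 genes called moved by over 1.5 times in these cases. Without a fold change minimum it was 6 in Oct4 Ctrl early ICMs against morulae, 2 in Oct4 Ctrl late against early ICMs, 5 in Sox2 Ctrl late against early ICMs and 2 in the early line difference. In Oct4 Ctrl late against early ICMs the 1 call (Cldn4) became 0 with scaling by totals, no detection filter, the library with the lowest total left out (Oct4 Ctrl late ICM 2-1), rlog values or a fit of the 2 groups alone. In Sox2 Ctrl late against early ICMs DESeq2 called Pkp2 in place of Dsp, and the 2 calls became 1 (Ocln) with scaling by totals, thinned counts, that library left out, rlog values or a fit of the 2 groups alone. The early line difference became 0 on rlog values. Without the 3 Ctrl ICMs above 1000 CPM of trophectoderm markers the count was 2 in Oct4 Ctrl late against early ICMs, 1 in Sox2 Ctrl late against early ICMs and 1 in the late line difference. With the marker sum as a covariate it was 2 in Oct4 KO and 1 in Sox2 KO early ICMs. Leaving out each Oct4 MWT early ICM in turn gave 0 in every case in the comparison with Ctrl.

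With the replicate block the count was 2 in Oct4 KO morulae (Dsp and Dsc2) and 2 in Sox2 Ctrl early ICMs against morulae. The same embryos without the block, a setting chosen after seeing the data, gave 2 in Oct4 KO early ICMs, 2 in Sox2 Ctrl early ICMs against morulae and 1 in Sox2 Ctrl against MWT early ICMs, so fewer embryos alone also moved the counts. In no comparison did every pair of same-numbered embryos correlate above 0.1, so the embryos share only a number. No block could be fitted where fewer than 2 numbers were shared. The cause of the other changes was not tested. Scarce genes such as Dsc2 are limited by counting depth.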
